A study of Salmo salar with 51 samples.

Results

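Probes C088R068 and C022R032 are 2 of the 43689 probes of a 44K salmonid array. C088R068 is described as cldnd, Claudin-like protein ZF-A89, and C022R032 as Fut7, an alpha-(1,3)-fucosyltransferase. Both were followed in whole Atlantic salmon (Salmo salar) over 17 time points, which were 2, 5, 10, 15, 20, 25, 30, 35, 41, 47, 53, 59, 65, 71, 77, 83 and 89 days post fertilization (dpf), with 3 individuals per time point and 1 individual per array. The individual carried Cy5 and a common pool of RNA from all time points carried Cy3 on all 51 arrays, so the dyes were not swapped. Less 2 dpf material than material of the other time points was available for the pool. RNA of 2, 5 and 10 dpf was scarce and needed further rounds of extraction, synthesis and labelling, which cannot be told apart from stage. All fish were unperturbed, were raised in fresh water at 1 temperature from the eggs of 1 hatchery, and were at blastulation at 2 dpf, gastrulation at 5 dpf and somitogenesis at 10 dpf. The yolk sac was vascularized at 15 and 20 dpf, and the later samples were embryos with fin rays, alevins, fry and, at 77, 83 and 89 dpf, parr.

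The pair was chosen by the difference of log2 ratios between 10 and 5 dpf on these arrays, with results known. Values of 2, 5, 10 and 15 dpf compared with each other are therefore given as a description, without a test. Between 10 and 5 dpf, cldnd ranked 10 and Fut7 ranked 11 from the lowest log2 difference among 20686 probes with a fitted difference. Tests were kept for the arrays from 15 dpf on and, for Fut7, for those later arrays against 2 dpf. Probe names are those of the study's lists of changed probes, no probe sequence was used, and near-identical gene copies, which are frequent in salmonids, cannot be told apart here.

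Claudins are membrane proteins that form the strands of tight junctions, which seal epithelial sheets and set which ions pass between cells. In fish embryos such junctions form early in the outer epithelial layer around the blastoderm. FUT7 in mammals transfers fucose in the last step that makes the sialyl Lewis x sugar, the ligand by which leukocytes bind selectins on vessel walls. What the salmon probe's enzyme modifies is not known from these data.

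Cldnd was high only in the earliest embryos. The signal of the individuals at 2 dpf was 19083.5, 17729.5 and 25105, in the scanner's arbitrary units after background correction. At 5 dpf it was 35384, 20452.5 and 27142. At 10 dpf it was 1604, 1958 and 1544.5, so that the highest of the 3 somitogenesis embryos lay below the lowest of the 6 earlier ones by a wide gap. At 15 dpf it was 62.5, 333.5 and 596. From 15 to 89 dpf the 42 arrays had a lowest signal of 62.5, a median of 298.5 and a highest of 1601. Only 4 of these 42 arrays reached 500, the minimum below which a signal is treated here as a bound, and each was replicate 3 of its time point (15, 20, 47 and 77 dpf). They were on slides 6, 3, 6 and 2, all within slides 1 to 6, where overall Cy5 signals were higher. On slides 7 to 14 no later cldnd signal exceeded 387. The highest of the 4, 1601, was replicate 3 of 20 dpf, and the other individuals of 20 dpf had signals of 176 and 244. Replicate 3 of 20 dpf was hybridized on slide 3, which also held 2 of the 10 dpf arrays and replicate 2 of 83 dpf, whose cldnd signal was 279. After normalization the log2 ratio of cldnd in replicate 3 of 20 dpf was -2.34, within the -4.66 to -2.02 of the later arrays. The signal of the reference pool on this probe lay between 1566 and 3410 on all 51 arrays.

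Fut7 showed a pulse at gastrulation. Its signal at 2 dpf was 1191.5, 1223.5 and 988.5. At 5 dpf it was 21009.5, 10128 and 17745, above every other array of the series. At 10 dpf it was 1376, 1197.5 and 1560, a range that overlaps with that of 2 dpf before normalization. At 15 dpf it was 274, 597 and 923. Over the 42 arrays from 15 dpf on, the lowest signal was 274, the median 674.25 and the highest 1770, and 31 of the 42 arrays reached 500. The pool's signal on this probe lay between 932.5 and 2227. No array carried a spot flag on either probe.

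**Figure D1:**
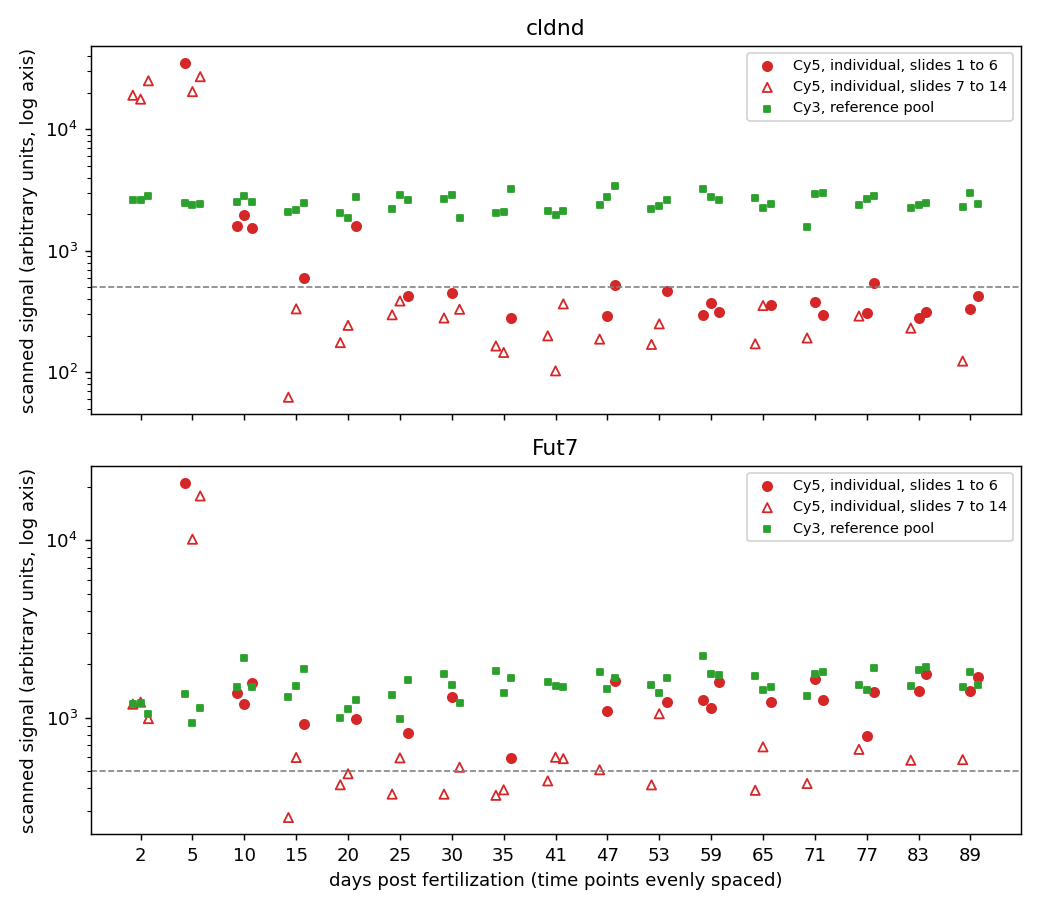
Scanned signals of cldnd (upper panel) and Fut7 (lower panel) on each of the 51 arrays, on a log axis, by days post fertilization. Red circles and triangles are Cy5 signals of individuals on slides 1 to 6 and on slides 7 to 14, green squares are Cy3 signals of the reference pool, and the dashed line is the minimum of 500; cldnd lies at 17729.5 or more at 2 and 5 dpf and is below the line on most arrays from 15 dpf on, and Fut7 lies at 10128 or more at 5 dpf only.

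On the normalized scale, the log2 ratio of an individual to the pool after loess normalization within each array, cldnd averaged 4.64 ± 0.46 at 2 dpf, 2.78 ± 0.07 at 5 dpf, -1.87 ± 0.65 at 10 dpf and -3.48 ± 1.03 at 15 dpf (SD, n = 3 each). The 3 ratios of 2 dpf were 4.72, 4.14 and 5.05, and those of 5 dpf were 2.84, 2.71 and 2.77. Those of 10 dpf were -2.16, -1.13 and -2.32, and those of 15 dpf were -4.66, -2.77 and -3.02. The ranges of 2, 5 and 10 dpf did not overlap, and the wide spread at 15 dpf came from replicate 1, which had the lowest signal of all. The later time points averaged between -3.17 at 83 dpf and -2.45 at 77 dpf, and replicate 1 of 15 dpf set the order of 15 dpf among them. Without that replicate the difference of 89 minus 15 dpf was -0.24, and most signals from 15 dpf on were under 500. No lowest stage can therefore be named. On this normalized scale cldnd was thus highest at 2 dpf, followed by 5 dpf and 10 dpf. Its lowest mean, which rests on replicate 1, was at 15 dpf. The scanned signals of 2 and 5 dpf overlapped, at 17729.5 to 25105 and at 20452.5 to 35384. In the order of 17 mean ratios, 14 of the 16 pairs of neighbours had overlapping individuals. Only the step between 2 and 5 dpf and that between 5 and 10 dpf, which chose the pair, separated all 3 individuals from all 3. That order was set by these same values, and the share of all probes with such gaps was not counted.

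Fut7 averaged 1.24 ± 0.20 at 2 dpf, 3.06 ± 0.14 at 5 dpf, -1.47 ± 0.08 at 10 dpf and -1.68 ± 0.31 at 15 dpf (SD, n = 3 each). Its ratios were 1.42, 1.02 and 1.26 at 2 dpf, 2.93, 3.05 and 3.21 at 5 dpf, -1.54, -1.38 and -1.49 at 10 dpf, and -1.61, -1.42 and -2.02 at 15 dpf. The individuals of 5 dpf lay above all others, those of 2 dpf came next, and those of 10 and 15 dpf overlapped. The later means lay between the lowest level, at 15 dpf, and -0.21 ± 0.39 at 71 dpf (SD, n = 3). In the order of levels, set by these same values, 13 of 16 pairs of neighbours overlapped, without a count over all probes beside it. The exceptions were 5 against 2 dpf, 71 against 2 dpf, and 83 dpf, at -0.69 ± 0.11, against 41 dpf, at -0.97 ± 0.20 (SD, n = 3 each). Whole individuals were measured, so fewer cells that express a transcript and less RNA of it per cell cannot be told apart.

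**Figure D2:**
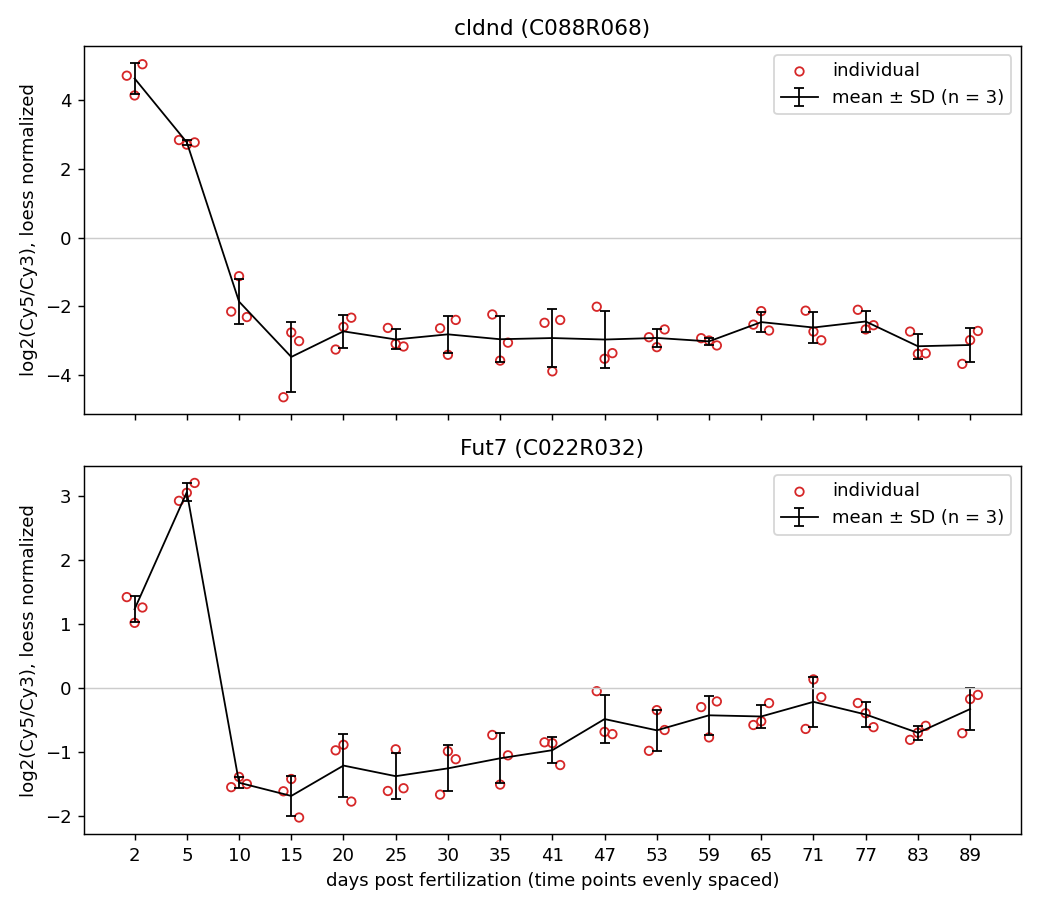
Loess-normalized log2 ratio of Cy5 (individual) to Cy3 (reference pool) for cldnd (upper panel) and Fut7 (lower panel) at the 17 time points. Open circles are individuals, and the line with bars is the mean ± SD of 3; cldnd is highest at 2 dpf (4.64), Fut7 peaks at 5 dpf (3.06), and both have their lowest mean at 15 dpf (-3.48 and -1.68). For cldnd that lowest mean rests on replicate 1, and most of its signals from 15 dpf on are under 500.

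Between 5 and 10 dpf, the contrast that chose the pair, cldnd differed by -4.64 (standard error 0.43), a ratio 25.0-fold lower at 10 dpf, and Fut7 by -4.53 (standard error 0.26), 23.2-fold lower at 10 dpf. On slides 1 to 6, which held all 10 dpf arrays and 1 of the 5 dpf arrays, the differences were -4.71 for cldnd and -4.40 for Fut7. Between 15 and 10 dpf cldnd differed by a further -1.61 (standard error 0.43) and Fut7 by -0.21 (standard error 0.26), a difference smaller than its standard error. At 10 of the later time points cldnd was under 500 on all 3 arrays. There its Cy5 signal was at least 37.8-fold lower than at 5 dpf, the smallest of the 10 bounds (35 dpf). These bounds set the mean Cy5 signal of 5 dpf against, on each later array, the higher of the probe's own signal and the lowest signal that passes 500, after normalization between arrays, and they are open to dye bias.

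At gastrulation compared to blastulation the probes moved in opposite directions on the normalized scale. Fut7 was higher at 5 dpf than at 2 dpf by 1.83 (standard error 0.26), and this direction held under every treatment of the signals, with differences between 1.72 and 3.81. Cldnd was lower at 5 dpf than at 2 dpf by a difference of -1.86 (standard error 0.43), which was -0.46 with median centring in place of loess, -1.03 with the Cy5 channel alone and -2.12 in the deposited log2 values. Without any normalization the sign turned, to 0.54, and the median of all tested probes then differed by 1.43 between these time points, compared to -0.10 after loess. Relative to that median, cldnd was at -0.89 without normalization and at -1.76 after loess. Slide 14 held 2 arrays of 5 dpf and 1 of 2 dpf. On it the cldnd signals were 20452.5 and 27142 at 5 dpf, against 25105 at 2 dpf, and the ratios 2.71 and 2.77 at 5 dpf, against 5.05 at 2 dpf. On the same slide the Fut7 signals were 10128 and 17745 at 5 dpf, against 988.5 at 2 dpf. The 2 dpf arrays were all on slides 7 to 14, where median Cy5 signals of an array were lower (124.5 to 323.5) than on slides 1 to 6 (304.5 to 601). Within slides 7 to 14 the difference of 5 and 2 dpf was -1.90 for cldnd and 1.89 for Fut7. The part of overall brightness at 2 dpf in the difference of cldnd was not tested.

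**Figure D3:**
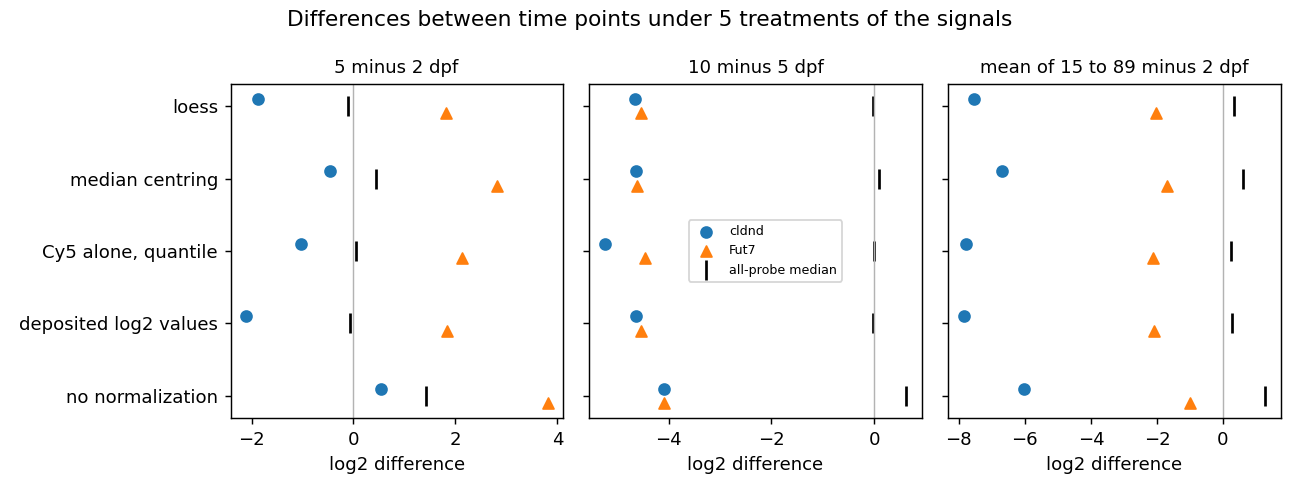
Log2 differences of cldnd (circles), Fut7 (triangles) and the median of all tested probes (bars) under 5 treatments of the signals, for 5 minus 2 dpf, 10 minus 5 dpf and the mean of 15 to 89 minus 2 dpf. Between 5 and 2 dpf cldnd changes sign without normalization (0.54) while Fut7 stays positive; in the other panels both probes stay negative in every treatment.

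The later arrays, which took no part in the choice, were tested with limma in 1 fit over all 51 arrays, with p-values adjusted by Benjamini-Hochberg over all tested probes. They rest on 3 individuals per time point. The mean of the 14 later time points was lower than the level at 2 dpf for both probes. For cldnd the means were -2.91 over 15 to 89 dpf and 4.64 at 2 dpf, a difference of -7.55, and every one of the 42 later arrays lay below the 3 arrays of 2 dpf. In scanned signals the fall was at least 39.4-fold, with later signals under 500 raised to 500. No test is given for it, because cldnd passed the filter on low signals only through 2, 5 and 10 dpf, where it was high, and only 4 of the 42 later arrays reached 500. For Fut7 the means were -0.80 over 15 to 89 dpf and 1.24 at 2 dpf, a difference of -2.04 (standard error 0.19, limma, adjusted p = 2.93e-12). This difference was -1.01 without normalization (adjusted p = 0.0287), and it is a difference of ratios, since the scanned signals of Fut7 overlapped between 2 dpf (988.5 to 1223.5) and the later arrays (274 to 1770). Among all probes with this comparison, 30.9% were called lower in the later time points.

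Among the later time points Fut7 differed and no difference of cldnd was found. The limma F test over the 14 time points from 15 to 89 dpf gave an adjusted p of 3.24e-05 for Fut7, which had an F of 5.96, and an adjusted p of 0.69 for cldnd, which had an F of 0.839. This F test passed for 46.9% of all probes, so the call sets Fut7 apart from little of the array. Without replicate 3 of every time point its adjusted p for Fut7 was 0.0698, and without normalization 0.686. Most later cldnd signals were under 500, which limits what could be seen of that probe.

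Fut7 was higher in parr at 89 dpf than in embryos at 15 dpf. Its signals were 580.5, 1416.5 and 1689.5 at 89 dpf, against 274, 597 and 923 at 15 dpf, so that 1 individual of 89 dpf lay within the range of 15 dpf. Its ratios were -0.70, -0.17 and -0.10 at 89 dpf, against -1.61, -1.42 and -2.02 at 15 dpf, with no overlap. The difference was 1.36 (standard error 0.26, limma, adjusted p = 6.92e-05), a 2.56-fold higher ratio, where 20.0% of all probes were called higher and 17.9% lower at 89 dpf. Without normalization it was 1.01 (adjusted p = 0.236). Within slides 1 to 6 it was 1.88, from 2 arrays of 89 dpf and 1 of 15 dpf, and within slides 7 to 14 it was 0.81, from 1 array and 2 arrays. For cldnd the means were -3.13 at 89 dpf and -3.48 at 15 dpf, a difference of 0.35 (standard error 0.43, limma, adjusted p = 0.555) that was -0.24 without replicate 1 of 15 dpf. Cldnd reached 500 on 1 of 3 arrays at 15 dpf and on 0 at 89 dpf, so this test could not decide whether its level changed.

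Of the 13 steps of Fut7 from 15 to 89 dpf, 8 were higher and 5 lower at the later time point, and the largest were 0.49 (47 against 41 dpf) and 0.47 (20 against 15 dpf). Its mean ratio was -1.21 at 20 dpf, -1.37 at 25 dpf, -1.25 at 30 dpf, -1.09 at 35 dpf and -0.97 at 41 dpf. It was -0.48 at 47 dpf, -0.66 at 53 dpf, -0.42 at 59 dpf, -0.44 at 65 dpf, -0.21 at 71 dpf, -0.41 at 77 dpf, -0.69 at 83 dpf and -0.32 at 89 dpf. The SD of the 3 individuals over these time points and 15 dpf lay between 0.11 and 0.49. All time points from 15 to 41 dpf lay below all from 47 dpf on in the mean, a split chosen after the values were seen. Fut7 reached 500 on only 1 or 2 of 3 arrays at each time point from 15 to 41 dpf, against 2 or 3 from 47 dpf on. Low signals therefore limit the earlier side of this split. On slides 1 to 6 the ratios were between -0.77 and 0.14 on 15 arrays of 47 to 89 dpf, against -2.02 to -0.98 on 5 arrays of 15 to 41 dpf. On slides 7 to 14 they were between -0.98 and -0.04 on 9 arrays of 47 to 89 dpf, against -1.66 to -0.73 on 13 arrays of 15 to 41 dpf, so there the ranges overlapped. The slide sets hold the spans unevenly, and scanned Fut7 signals from 47 dpf on had a median of 1403 on slides 1 to 6 and 576 on slides 7 to 14. With slide as a fixed block the F test for Fut7 had an adjusted p of 0.000939.

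No single step between consecutive time points from 15 to 89 dpf was called for either probe. Of the 13 comparisons, limma called 0 for cldnd and 0 for Fut7, and 0 of each had an unadjusted p under 0.05. The methods' unadjusted test also called 0 for each. Only 4 of the 42 later cldnd arrays reached 500, so these tests could show little for cldnd, and no conclusion is drawn from its missing calls. Over all probes, 0.375% of the probe and comparison pairs were called. The smallest unadjusted p was 0.0893 for cldnd (20 against 15 dpf, a difference of 0.75, adjusted p = 0.61) and 0.0738 for Fut7 (47 against 41 dpf, a difference of 0.49, adjusted p = 0.553).

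The study's lists describe further probes as cldnd, C150R049 and C211R091, and all 3 had lower ratios at 10 dpf than at 5 dpf. As these lists name only probes called changed on these arrays, a cldnd probe that did not change would have no name here. The shared direction of the 3 is therefore no independent evidence. C150R049 had signals between 23260.5 and 36168.5 at 2 dpf, between 29178.5 and 53469 at 5 dpf and between 4979.5 and 6526 at 10 dpf. Like C088R068 it was lower at 10 dpf than at 5 dpf, with a difference of -3.77 (standard error 0.41), and it was lower again at 15 dpf than at 10 dpf, with -2.16 (standard error 0.41). From 15 dpf on its signal was between 80.5 and 932, and only 2 of the 42 arrays reached 500. Its 17 time point means correlated with those of C088R068 with a Pearson's r of 0.983 and a Spearman's rho of 0.642, as a description over time points that share the same arrays. C211R091 was far dimmer, at 747 to 1977 at 2 dpf, 1292.5 to 3722 at 5 dpf and 583 to 658 at 10 dpf. The pool's signal on this probe was 105 to 462, under 500 on all 51 arrays, which limits its ratios. The difference of C211R091 between 10 and 5 dpf was -2.33 (standard error 0.37) and its difference of 5 and 2 dpf only -0.32 (standard error 0.37, limma, adjusted p = 0.497). From 15 dpf on only 1 of its 42 arrays reached 500, so for all 3 probes the level after 10 dpf is bounded by the floor and the depths of their falls were not compared. Whether the 3 probes read the same transcript was not tested.

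**Figure D4:**
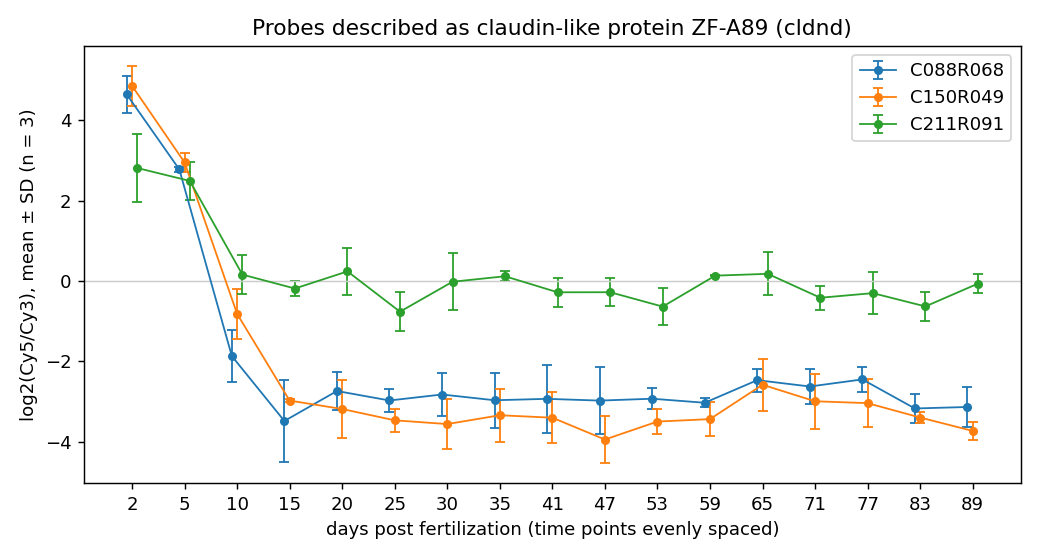
Loess-normalized log2 ratios of the 3 probes described as cldnd, mean ± SD of 3 individuals, over the 17 time points. C088R068 and C150R049 average between 2.78 and 4.86 at 2 and 5 dpf and at most -2.45 from 15 dpf on, while C211R091 averages between -0.76 and 0.24 from 10 dpf on.

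Apart from cldnd, claudin probes called between 5 and 10 dpf were higher at 10 dpf, except CLDN6 C201R107, whose call was not stable. Of 13 claudin probes in the study's lists, cldnd C150R049 and C211R091 included and the chosen probe left out, 5 were called higher and 3 lower at 10 dpf than at 5 dpf (adjusted p under 0.05 and at least a 2-fold difference), beside 11.9% higher and 8.47% lower over all probes, with a median difference of 0.06 compared to -0.02 over all probes. The lists name probes that the study called changed on these arrays, so such counts are no independent evidence. Nor are the p-values of list probes, here and below, independent evidence. Several list probes reached 500 on all 3 arrays only at the compared time point where they were high, which can have let them pass the filter on low signals. The probes higher at 10 dpf were 3 of the 4 probes of CLDN3, a sealing claudin of epithelia, 1 of CLDN4, which narrows the passage of ions between epithelial cells, and 1 of CLDN6, a claudin of embryonic epithelia in mammals. CLDN3 C031R082 had signals of 1859.5 to 5079.5 at 10 dpf, against 66 to 109 at 5 dpf, with no overlap. As its 5 dpf arrays were all under 500, the rise is a bound of at least 3.63-fold (limma, adjusted p = 2.28e-10). CLDN3 C151R089 had 2928 to 5992.5 at 10 dpf, against 250.5 to 334.5 at 5 dpf (limma, adjusted p = 0.000393), a call lost with slide as a fixed block (adjusted p = 0.118). CLDN3 C171R035 had 1949.5 to 4947 at 10 dpf, against 219.5 to 432 at 5 dpf (limma, adjusted p = 0.00504), a call lost without replicate 1 of every time point (adjusted p = 0.0576). The bound was 3.46-fold for CLDN6 C186R064 (limma, adjusted p = 0.000324) and 2.57-fold for CLDN4 C152R035 (limma, adjusted p = 0.0226), whose call was lost when replicate 1, 2 or 3 of every time point was left out (adjusted p 0.0553 to 0.102). The probes called lower were the 2 further cldnd probes and CLDN6 C201R107, which had signals of 282 to 510 at 10 dpf and 255 to 435.5 at 5 dpf and thus has no fold. Its call was lost in 9 of 16 alternatives (adjusted p 0.0274 to 0.736 over all 16), among them median centring, the Cy5 channel alone and each omission of a replicate. The 5 probes not called lay on both sides of 0. CLDN3 C229R078 and cldn7 C055R075 were each at -1.63 (limma, adjusted p = 0.0953 and 0.0789), a difference as large as that of some called probes. CLDN4 C086R035 was at -0.72, CLDN4 C183R016 at 0.06 and cldn7 C127R004 at 0.37.

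**Figure D5:**
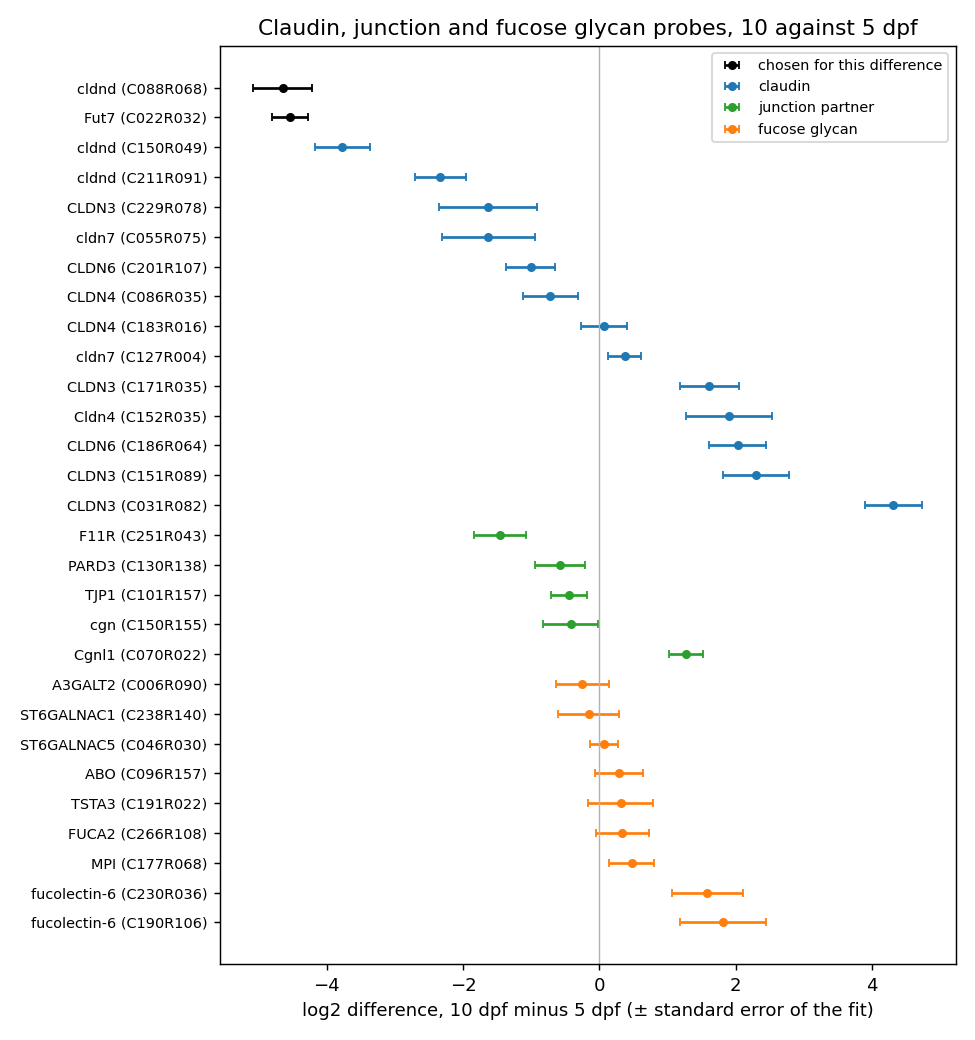
Log2 difference of 10 minus 5 dpf with the standard error of the limma fit for the chosen pair (black), the other claudin probes (blue), probes of junction proteins (green) and genes of fucose and related glycans (orange). The chosen pair lies at -4.64 and -4.53, claudins lie on both sides of 0, from -3.77 to 4.31, and the lowest fucose glycan probe lies at -0.25.

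At 5 dpf compared to 2 dpf, 5 of the 13 claudin probes were called higher and 1 lower, beside 20.0% higher and 19.8% lower over all probes. CLDN4 C183R016 had signals of 3460.5 to 7971.5 at 5 dpf, while its 2 dpf arrays were all under 500, which bounds the rise at 4.80-fold or more (limma, adjusted p = 5.62e-10). For CLDN3 C229R078 the bound was 4.84-fold (limma, adjusted p = 3.18e-06). CLDN7 C127R004, a claudin that in mammals lies along the sides of epithelial cells, differed by 1.31 (standard error 0.24, limma, adjusted p = 2.08e-05). CLDN3 C171R035 and C151R089 were called higher as well but were under 500 at both time points. The probe called lower was cldnd C150R049, with a difference of -1.91 (standard error 0.41), and its sign turned without normalization, to 0.52. At 15 dpf compared to 10 dpf, only cldnd C150R049 of the 13 was called, and it was lower, beside 9.31% higher and 2.64% lower over all probes. With median centring 3 were lower.

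Over the later arrays, 7 of the 13 claudin probes passed the F test and 8 differed between 89 and 15 dpf, 3 higher and 5 lower at 89 dpf, beside 46.9% passing the F test and 20.0% higher and 17.9% lower over all probes. Without normalization 1 was higher and 3 were lower at 89 dpf. CLDN6 C201R107 had signals of 4325 to 6133.5 at 89 dpf, against 434.5 or less at 15 dpf, with no overlap, and was at least 12.9-fold higher (limma, adjusted p = 4.07e-13). CLDN4 C183R016 was higher by 1.71 (standard error 0.34, limma, adjusted p = 7.2e-05) and CLDN4 C086R035 at least 1.28-fold (limma, adjusted p = 0.00233), with 1 of 3 arrays at 500 or more at 89 dpf. The 5 lower at 89 dpf were CLDN3 C151R089, C031R082 and C171R035, CLDN6 C186R064 and cldn7 C127R004, with differences between -1.97 and -0.79. Of these, the CLDN3 and CLDN6 probes were also among those called higher at 10 dpf than at 5 dpf. For the 3 cldnd probes, whose later signals were mostly under 500, neither the F test nor 89 against 15 dpf was called.

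Transcripts of proteins that work with claudins at junctions were read by 5 tested probes of 6. Between 5 and 10 dpf, Cgnl1, a cingulin-like protein of the junction's inner face, was higher at 10 dpf, with 17970.5 to 32411 against 3887 to 6053.5 at 5 dpf and a difference of 1.27 (standard error 0.25, limma, adjusted p = 0.000174), which was not called without normalization (adjusted p = 0.0513). F11R, the junctional adhesion molecule A, was lower at 10 dpf, with 1193.5 to 2567 against 1826.5 to 5100 at 5 dpf and a difference of -1.46 (standard error 0.38, limma, adjusted p = 0.00324). The F11R call was lost with slide as a fixed block (adjusted p = 0.181), without replicate 2 of every time point (adjusted p = 0.0791) and without normalization (adjusted p = 0.336). TJP1, the scaffold ZO-1 that anchors claudins to actin, differed by -0.44 (adjusted p = 0.235) between these time points and was higher at 5 dpf than at 2 dpf by 2.08 (standard error 0.26, limma, adjusted p = 2.12e-08). Cingulin itself was at least 1.97-fold higher at 15 dpf than at 10 dpf (limma, adjusted p = 8.4e-06), with 1 of 3 arrays at 500 or more at 15 dpf. PARD3, a polarity protein, was not called in any of these comparisons, and Rab13 was not tested because of low signals.

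Some markers of epithelium were higher at 10 dpf, where cldnd was lower. Of 7 probes of keratins, plakophilin 3 and desmocollin 1, 4 were called higher at 10 dpf than at 5 dpf and 3 were not called (plakophilin 3 at -1.12, keratin 13 C161R117 at -0.29 and keratin 78 at 0.19), beside 11.9% higher and 8.47% lower over all probes. The list's summed normalized Cy5 signal was 22633 to 33071 at 10 dpf, against 7160 to 10259 at 5 dpf. Keratin 13 C235R149 had signals of 16322 to 44648 at 10 dpf, against 90.5 to 353.5 at 5 dpf, and keratin 8 had 10561.5 to 19451.5 at 10 dpf, against 902 to 2106.5 at 5 dpf. Keratin 78 reached 2968 to 10526.5 already at 5 dpf, against 60 to 96.5 at 2 dpf. At 5 dpf compared to 2 dpf, 3 of the 7 were called higher and 4 lower, beside 20.0% and 19.8% over all probes. With median centring 3 were higher and 1 lower, without normalization 3 were higher and 0 lower, and 3 of the 4 lower probes were under 500 at both time points. None of the 7 had a signal of 0 on any array of 2, 5 or 10 dpf, but signals under 500 do not show that a marker was expressed. The part of tissue makeup in the fall of cldnd was not tested.

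Genes of fucose and related glycans were called in both directions at 5 dpf compared to 2 dpf. The list held 10 probes, of which 9 were tested, and FUT9, another alpha-(1,3)-fucosyltransferase, was left out because no time point had 500 on 3 of 3 arrays. Its signals were 43 to 110 at 2 dpf, 329 to 559 at 5 dpf and 384.5 to 739 at 10 dpf. At 5 dpf compared to 2 dpf, 2 of the 9 were called higher and 3 lower, beside 20.0% higher and 19.8% lower over all probes, so the share called higher was near that of the array. With median centring 2 were higher and 1 lower, and without normalization 3 higher and 0 lower. TSTA3, which makes the fucose donor GDP-fucose, rose by at least 1.09-fold at 5 dpf over 2 dpf (limma, adjusted p = 0.0142), and its signals were 1925 to 4051 at 10 dpf, against 958.5 to 1361.5 at 5 dpf, with a difference of 0.32 (adjusted p = 0.685). ST6GALNAC5, a sialyltransferase, was higher at 5 dpf by 1.38 (standard error 0.21, limma, adjusted p = 7.15e-07). The 3 lower at 5 dpf were FUCA2, a fucosidase, ABO, a blood group glycosyltransferase, and A3GALT2, a galactosyltransferase, and the signs of ABO and A3GALT2 turned without normalization.

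Between 5 and 10 dpf 2 of the 9 were called higher at 10 dpf by limma and 7 were not called, beside 11.9% higher over all probes. Both were probes of fucolectin-6, a fucose-binding lectin, at least 1.39-fold (C190R106) and at least 1.80-fold (C230R036) higher, and neither stayed called with slide as a fixed block. At 15 dpf compared to 10 dpf 3 were called higher, MPI, which feeds mannose into the fucose donor's pathway, ABO and FUCA2, with differences between 1.16 and 1.39, beside 9.31% over all probes, but 0 with median centring. Between 89 and 15 dpf 4 were higher and 1, ABO, lower, beside 20.0% and 17.9% over all probes, and without normalization 1 was higher and 0 lower. The higher ones were ST6GALNAC1, another sialyltransferase, at least 1.65-fold (limma, adjusted p = 1.03e-05), ST6GALNAC5, with a difference of 0.85 (standard error 0.21, limma, adjusted p = 0.00113), and the fucolectin-6 probes, with differences of 2.08 and 1.64.

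Markers of leukocytes, the cells in which mammalian FUT7 acts, were called in both directions at 5 dpf compared to 2 dpf, 1 of 6 higher and 2 lower, beside 20.0% and 19.8% over all probes. Without normalization 2 were higher and 0 lower. Their 6 probes summed to 2548 to 3066 in normalized Cy5 signal at 5 dpf, against 3265 to 3917 at 2 dpf, and to 3488 to 4105 at 10 dpf, while their summed scanned signal ran the other way, at 2630 to 4404 at 5 dpf, against 1134 to 1702 at 2 dpf. Myeloperoxidase (MPO) and Plastin-2 C008R104 were under 500 on all arrays of 2, 5 and 10 dpf. Coronin-1A was under 500 on all arrays of 2 and 5 dpf. None of the 6 had a signal of 0 on any array of 2, 5 or 10 dpf, but signals under 500 do not show that a marker was expressed. The probe called higher was MRC1, the macrophage mannose receptor, with 1423 to 2271 at 5 dpf, against 248 or less at 2 dpf (limma, adjusted p = 0.00158). The 2 called lower were coronin-1A and PU.1 (SPI1), a transcription factor of myeloid cells, and both signs turned without normalization. PU.1 differed by -1.31 (standard error 0.35, limma, adjusted p = 0.00181). Its scanned signals overlapped, at 490 to 746 at 5 dpf, against 484.5 to 791.5 at 2 dpf. At 10 dpf PU.1 had signals of 902 to 2033.5, MRC1 of 3026 to 6517 and Plastin-2 C063R011 of 1621 to 3073.5. At 10 dpf compared to 5 dpf 1 of the 6 was called higher and 5 were not called, beside 11.9% higher over all probes. The probe called was Plastin-2 C063R011, with a difference of 1.65 (standard error 0.28, limma, adjusted p = 1.95e-05). At 15 dpf compared to 10 dpf 4 of the 6 were called higher and 2 were not called, beside 9.31% higher over all probes, and without normalization 2 were called higher. Between these time points coronin-1A C125R116 had signals of 1781 to 8809 at 15 dpf, against 427 to 822.5 at 10 dpf. Between 89 and 15 dpf, where Fut7 was higher, 3 of the 6 (both Plastin-2 probes and coronin-1A) were called higher and 3 were not called, beside 20.0% higher over all probes, and 0 were called without normalization. The normalized sum was 27182 to 33475 at 89 dpf, against 14623 to 16998 at 15 dpf, and the summed scanned signals overlapped, at 19648 to 44295 at 89 dpf, against 8908 to 36816 at 15 dpf. PU.1 differed by -0.43 (adjusted p = 0.346) and MPO by -0.17 (adjusted p = 0.753). The part of leukocytes in the later level of Fut7 was not tested. The 4 probes of hemoglobins, fast muscle troponin T and a lens crystallin were all higher at 89 dpf than at 15 dpf, with differences between 3.02 and 4.57.

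The probes most like each member were sought among 20555 tested probes with a mean at every time point, of which 4305 were described, by Pearson's r over the 17 time point means. Only the first 5 described probes are named, and undescribed probes rank among them. For cldnd these were Late histone H2A.2.2 (C018R091, r = 0.984), cldnd C150R049 (r = 0.983), mitochondrial MT-ND4 (C255R159, r = 0.979) and probes described only by a TolA domain (C045R136, r = 0.977) and a PAT1 domain (C108R137, r = 0.976). The last had signals of 44972.5 to 64824 at 2 dpf, 30782 to 50437 at 5 dpf, 3888 to 7495.5 at 10 dpf and 56 to 1095 later. The histone kept up to 2256 later. MT-ND4 had 6082.5 to 8448 at 2 dpf, but 9635.5 to 26476 at 10 dpf and 1734 to 28259 later. Spearman's rho of these 5 lay between 0.412 and 0.642.

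For Fut7 the first 3 described probes were all of SAT1, the enzyme that acetylates polyamines for their breakdown (C024R076 with r = 0.946, C130R067 with r = 0.920 and C113R062 with r = 0.920). They ranked 2, 3 and 4 among all tested probes. SAT1 C024R076 had signals of 1339.5 to 2222.5 at 2 dpf, 14270 to 23180 at 5 dpf, 3081.5 to 6675 at 10 dpf and 446.5 to 5204.5 later, the highest at 5 dpf. GNAI1, an inhibitory G protein subunit (C039R098, r = 0.874), and Tetraspanin-1 (C134R079, r = 0.865) followed, and both had higher ratios at 2 dpf than at 5 dpf. Cldnd and Fut7 correlated with each other with r = 0.815 and rho = 0.370 over the 17 means. Both probes were chosen for their fall between 5 and 10 dpf, and the 17 means include that fall. A high r between them therefore follows from the choice. The rankings of the probes most like each member rest on the same means. These values are descriptions, since the time points also share a pool and a normalization.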

How the data were processed

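Arrays of 51 whole individuals, 3 at each of 17 time points, were grouped by the time point in their labels. The authors deposited background-corrected median signal intensities of Cy5 and Cy3 with a spot flag; the correction method is not given in the sources used here. A further deposited table held log2 ratios that the authors had Lowess-normalized, centred on each probe's median, which correlated with the scanner ratios of its arrays with r between 0.838 and 0.992 (column medians -0.04 to 0.03). Signals below 1 were raised to 1, log2 Cy5 to Cy3 ratios were loess-normalized with limma 3.58.1 in R 4.3.3, and flagged spots (2.35%) were left out. The 20964 probes with Cy5 of at least 500 on 3 of 3 arrays of a time point were tested in 1 limma fit (lmFit and eBayes). The fit was also run on simulated data with independent noise. That simulation had no slide effect, flagged spots or floor, so it could not show how the fit performs on these arrays. The number of arrays limits the precision. The 2 probes, the gene lists and the tests were chosen with earlier results of these data known. Probes named are the 2 members, every list probe and the 5 described probes most like each member, and names come from 4502 probes described in the study's Additional files, of which the first was held only in part. Alternatives were other normalizations, floors, filters and flags, the deposited log2 values, the methods' t-test, blocks and left-out arrays; a block by slide set, values within slide sets and unnormalized ratios were added after seeing the data. Background correction alternatives were not run, as only corrected intensities were used.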

Additional observations from a re-analysis of the deposited data

How the results depend on the processing

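For cldnd, 0 of 13 comparisons were called in all 18 alternatives and the F test was not passed in 17 (adjusted p 0.520 to 0.971); the mean of 15 to 89 dpf was lower than 2 dpf in 17 (-6.02 at the least) and in all 45 single-array omissions. For Fut7 the same comparison held in 17 alternatives (-2.18 to -1.01), and 89 minus 15 dpf kept its call in 17 of 18 and in all 6 single-array omissions. Quantile scaling of the average signal is counted among these alternatives but leaves ratios as they are, so its agreement was fixed in advance. The cause was not tested for any change below.

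Without normalization, cldnd differed by 0.54 (5 minus 2 dpf, reversed), -4.10 (10 minus 5 dpf), -2.63 (15 minus 10 dpf) and -0.02 (-0.025 before rounding; 89 minus 15 dpf, reversed, adjusted p = 0.985). Fut7 differed by 3.81, -4.08, -1.24 and 1.01 (adjusted p = 0.236), and its F test had an adjusted p of 0.686. The lists then had 3 claudin calls (15 minus 10 dpf) and 3 and 0 fucose glycan calls (5 minus 2 and 15 minus 10 dpf). With median centring, cldnd differed by -0.46 and Fut7 by 2.81 (5 minus 2 dpf) and -0.61 (15 minus 10 dpf), with 3 claudin calls (15 minus 10 dpf) and 3 and 0 fucose glycan calls (5 minus 2 and 15 minus 10 dpf). With the Cy5 channel alone, cldnd differed by -1.03 (5 minus 2 dpf) and -5.25 (10 minus 5 dpf), Fut7 by 2.14 (5 minus 2 dpf) and -0.53 (15 minus 10 dpf), and 1 fucose glycan probe was called (15 minus 10 dpf). With flagged spots kept, cldnd differed by -2.25 (5 minus 2 dpf). With slide as a fixed block, Fut7 differed by -4.18 (10 minus 5 dpf) and 0 fucose glycan probes were called in 10 minus 5 and in 15 minus 10 dpf. With no filter on dim probes, 0 were called in 10 minus 5 dpf.

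Leaving out replicates 1, 2 or 3 of every time point gave adjusted F test p-values of Fut7 between 0.00124 and 0.0698. Fucose glycan calls were then 3 to 6 (5 minus 2 dpf), 0 to 1 (10 minus 5 dpf) and 0 to 2 (15 minus 10 dpf). Leaving out single arrays gave adjusted F test p-values of Fut7 of 1.82e-05 to 0.000184. The 89 minus 15 dpf differences of cldnd then lay between -0.24 and 0.70 (lowest without replicate 1 of 15 dpf, adjusted p = 0.714). Replicate numbers do not pair individuals by the labels: over 48 pairs of equal number in consecutive time points the correlation of deviations had a median of 0.030, and 13 exceeded 0.1. With the replicate block, the adjusted F test p was 3.83e-05 for Fut7 and 0.681 for cldnd, and the block changed no call of either. Signals under 500 on 38 of 42 later arrays limit what can be said of late cldnd.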
